A study of Mus musculus with 30 samples.

Results

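The forelimb buds described here were collected 24 h after a single injection of the WNT secretion inhibitor Wnt-C59 (C59) at embryonic day E10.5, a time at which the limb bud had been recovering from the inhibitor. The comparison was defined by the sample labels alone and holds 6 of the 30 libraries of the series. These are 3 libraries from C59-treated embryos and 3 from embryos of females that received DMSO. By the methods of the study the vehicles differed: control females received DMSO in buffered saline, and the C59 vehicle also held methylcellulose and Tween. The effect of the vehicle was not tested apart from that of C59. All embryos were wild type on the Swiss Albino background, the age at dissection was E10.5 plus 24 h, and polyA RNA was sequenced in pairs of 150-base reads. The other 24 libraries are the same 2 treatments at 1, 6, 12 and 18 h, and none of them is shared with the comparison at 24 h. The injection went into the pregnant female, so a whole litter was exposed. According to the methods of the study 2 to 3 pairs of forelimb buds were dissected, and RNA came from one pair for each replicate. The methods also state that the replicates of a condition and time point covered at least 3 litters. The labels do not tie libraries to litters. *Xist* and Y-linked transcripts were nevertheless both present in 5 of the 6 libraries, so how many embryos a library holds cannot be told from these data. P-values therefore measure the spread between these libraries, part of which may be technical or belong to a litter.

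C59 blocks porcupine, an enzyme of the endoplasmic reticulum that attaches a lipid to newly made WNT proteins. Without this lipid the ligands are not secreted, and both the canonical pathway, which acts through β-catenin and TCF/LEF factors, and the non-canonical pathways are shut off. In the limb, WNT ligands made by the ectoderm act on nearby mesenchyme, where they oppose the choice of a cartilage fate, and they are needed for the apical ectodermal ridge (AER), the source of FGFs at the distal rim. Muscle has a separate origin: its progenitors leave the somites, enter the limb bud as *Pax3*- and *Lbx1*-expressing cells under the guidance of the receptor MET, and then switch on *Myf5* and *Myod1*, followed by *Myog* and the genes of the sarcomere.

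The 6 libraries held between 19837881 and 26261117 counts. They carried the forelimb genes *Tbx5* (60.9 to 71.3 FPKM) and *Prrx1* (95.3 to 121 FPKM), and the hindlimb genes *Tbx4* (2.68 to 3.43 FPKM) and *Pitx1* (1.15 to 1.96 FPKM) were low. No library was a copy of another. The DMSO libraries differed from each other by a chi-square per degree of freedom of 3.13 to 4.92, whereas C59 replicate 1 stood apart from C59 replicates 2 and 3 by 18.2 and 12.9, and those 2 differed by 9.22.

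Of 13675 protein-coding autosomal genes tested at 24 h, 881 (6.44%) passed at an adjusted p (Benjamini-Hochberg) under 0.05 by the quasi-likelihood test of edgeR, which is the test behind every adjusted p given here. Of these, 394 (2.88%) were higher and 487 (3.56%) were lower in C59. Genes of this kind are referred to as changed, at any fold. A total of 112 genes (0.819%) also differed by more than 1 on the log2 scale, that is, more than 2-fold, and these are referred to as called. Where a single gene is said to keep or lose its call under an alternative, this refers to whether its adjusted p stayed below 0.05. There were 57 called genes with higher levels (0.417%) and 55 with lower levels (0.402%). For comparison, 1.17% of the tested genes were called at 6 h, 660 of 13324 (4.95%) at 12 h and 173 of 13413 (1.29%) at 18 h. The 18 h comparison holds a library that stands apart, C59 18 h replicate 3, and without it 194 of 13558 genes (1.43%) were called. The effect of C59 itself changed between 12 h and 24 h for 805 genes (5.83%) and between 18 h and 24 h for 175 genes (1.27%), by an interaction contrast with the same thresholds.

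The first question was whether the WNT pathway was back at control levels. *Axin2*, a feedback inhibitor and direct target of canonical WNT signaling, stood at 120, 113 and 109 CPM (counts scaled to library size) in the DMSO libraries and at 117, 105 and 101 CPM in the C59 libraries. The groups overlapped, and the log2 fold change of -0.08 ± 0.07 (SE, 3 libraries per group, here and throughout) did not pass the threshold (adjusted p 0.507). *Nkd1*, another feedback inhibitor, likewise overlapped (0.02 ± 0.06, adjusted p 0.886). Among 14 tested canonical targets, the cyclin gene *Ccnd1* was higher (0.25) and the antagonist gene *Dkk1* (-0.63) and the transcription factor gene *Tcf7* (-0.35) were lower, and 11 did not pass. The median over these targets was 0.03, against -1.27 at 12 h. *Lef1*, which encodes a nuclear partner of β-catenin, was at 58.3, 57.0 and 55.5 CPM in DMSO and 46.4, 54.0 and 51.3 CPM in C59, and its log2 fold change of -0.17 ± 0.07 did not pass (adjusted p 0.189). From 12 h to 24 h the C59 effect on *Axin2* moved by 1.36 ± 0.09 (adjusted p 5.64e-08) and that on *Dkk1* by 1.74 ± 0.24 (adjusted p 3.21e-05). The call for *Dkk1* was lost without DMSO replicate 1 and without DMSO replicate 2, while its log2 fold change stayed between -0.71 and -0.44 in the 17 alternatives followed.

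Some ligand genes of the pathway were higher than in the controls. Of 16 tested *Wnt* genes, 6 were higher, none was lower and 10 did not pass, with a median log2 fold change of 0.33 beside 0.0037 over all tested genes. *Wnt4*, which is expressed in developing joints, was at 29.9, 26.4 and 27.3 CPM in DMSO and at 43.0, 40.3 and 41.8 CPM in C59. Every C59 library lay above every DMSO library (0.58 ± 0.08, adjusted p 0.000982). Such a lack of overlap was found for 27.7% of all tested genes, 13.5% with higher and 14.3% with lower levels in C59. The ectodermal ligand gene *Wnt7b* was also separated, with 39.4 to 42.0 CPM in DMSO and 51.4 to 57.4 CPM in C59 (0.41 ± 0.07, adjusted p 0.00639). *Wnt3a* (1.00), *Wnt9b* (0.59), *Wnt3* (0.44) and *Wnt6* (0.37) were the other 4. *Wnt4* and *Wnt7b* had been higher at 12 h too (0.78 and 0.89), so for these the difference at 24 h had the sign that it had during inhibition. *Wnt5a*, the main non-canonical ligand gene of the distal mesenchyme, had a log2 fold change of -0.23 ± 0.07 that missed the threshold (adjusted p 0.0631), although it passed with DESeq2 and without a filter on low counts. With a single library left out, between 2 and 6 ligand genes were higher, the fewest without DMSO replicate 1.

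**Figure D1:**
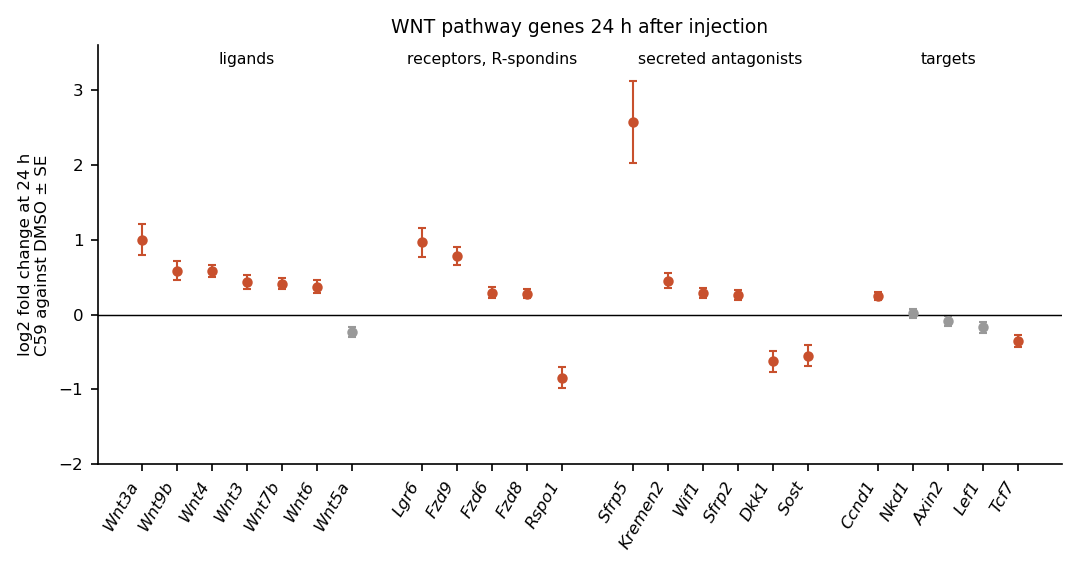
Log2 fold change of WNT pathway genes at 24 h, C59 against DMSO, with its standard error (3 libraries per group), grouped by role. Orange points have an adjusted p below 0.05 and grey points do not: 6 ligand genes lie above 0, whereas *Axin2*, *Nkd1* and *Lef1* lie near it.

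Receptors and secreted modulators moved in both directions. Of 22 receptor and R-spondin genes, *Lgr6* (0.97), *Fzd9* (0.78), *Fzd6* (0.29) and *Fzd8* (0.28) were higher and *Rspo1* was lower. *Fzd6* lost its call without 5 of the 6 single libraries. *Rspo1* encodes a secreted protein that amplifies WNT signals. Its level was 22.3, 18.0 and 16.4 CPM in DMSO and 12.3, 9.04 and 10.2 CPM in C59, without overlap (-0.84 ± 0.14, adjusted p 0.00416), after -2.18 at 12 h and -1.02 at 18 h. *Fzd9*, a Frizzled receptor gene, was at 9.70, 8.22 and 9.62 CPM in DMSO and 14.5, 14.9 and 18.1 CPM in C59 (0.78 ± 0.12, adjusted p 0.00274). *Lgr6*, a receptor gene for R-spondins, was at 2.05, 2.87 and 3.19 CPM in DMSO and 5.69, 4.60 and 5.82 CPM in C59. It had been lower at 12 h (-1.04) and its sign was therefore opposite at 24 h (0.97 ± 0.20, adjusted p 0.0139), a call that was lost without DMSO replicate 1. Among 14 secreted antagonists *Sfrp5*, *Kremen2*, *Wif1* and *Sfrp2* were higher and *Dkk1* and *Sost* lower. *Sfrp5* was the only called antagonist (2.58 ± 0.54), but it was at 0.0798 to 0.367 CPM in DMSO and 0.603 to 1.97 CPM in C59 and its call was lost without DMSO replicate 2, DMSO replicate 3 or C59 replicate 2. Without DMSO replicate 2 none of the 6 changed antagonists passed.

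Muscle genes held more called members at 24 h than any other list. This list also had the most tested genes, and the members of all lists were chosen with earlier results of these data known. Of 28 tested genes of the muscle lineage 14 were higher and 4 lower, with a median log2 fold change of 0.50. The 14 that were higher encode proteins of the contractile apparatus and of fusing or innervated myotubes, and the 4 that were lower act in progenitors and early myoblasts. Of these, 8 were called as higher and 1 as lower. Over all tested genes 2.88% were higher and 3.56% lower, and 0.417% were called as higher and 0.402% as lower. When a single library was left out, 11 to 14 were higher and 3 to 5 lower. A caution holds for all such comparisons of bulk tissue: fewer cells of a type and less RNA per cell cannot be told apart.

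*Acta1*, which encodes the α-actin of skeletal muscle, was at 21.7, 16.0 and 29.1 CPM in DMSO and at 62.0, 56.0 and 82.7 CPM in C59. All 3 C59 libraries lay above the DMSO libraries, by a log2 fold change of 1.58 ± 0.18 (adjusted p 0.000362). *Tnnc1*, the troponin C gene of slow and cardiac muscle, was at 16.7, 15.4 and 19.8 CPM against 48.6, 38.7 and 58.0 CPM (1.48 ± 0.14, adjusted p 8.73e-05). *Myl4*, an embryonic myosin light chain gene, rose from 13.0, 10.02 and 16.0 CPM to 32.3, 32.0 and 48.3 CPM (1.53 ± 0.18, adjusted p 0.000374). In each of these genes C59 replicate 3 had the highest level of its group, while the lowest C59 library remained above the highest DMSO library. *Tnnt3* (1.33), *Tnni1* (1.25), *Mylpf* (1.156), *Myl1* (1.09) and *Myh8* (1.08), the genes of further troponins and myosins, were called as well. *Myh3*, the embryonic myosin heavy chain gene, narrowly missed the fold threshold (0.98 ± 0.15, adjusted p 0.00302). *Tnnt2* (0.85), *Actc1* (0.75), *Des* (0.51), the myoblast fusion gene *Mymk* (0.49) and *Chrng* (0.44), a subunit gene of the fetal acetylcholine receptor, were higher by less.

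The rule for the largest changes added *Mybph*, which encodes a protein of the thick filament, at 10.02, 6.87 and 11.2 CPM in DMSO and 22.5, 26.2 and 32.7 CPM in C59 (1.54 ± 0.17, adjusted p 0.000278). It also added *Myoz2*, a gene of the Z disc (1.505). Further called genes of the sarcomere and the calcium store, picked after their values had been seen, were *Actn2* (1.33), *Casq2* (1.23), *Myom3* (1.21) and *Csrp3* (1.45). The calls for *Acta1*, *Tnnc1*, *Myl4*, *Tnnt3*, *Tnni1*, *Mylpf*, *Myl1*, *Actn2*, *Casq2*, *Mybph* and *Myoz2* were kept in all 17 alternatives in which single genes were followed, which include leaving out each library. The log2 fold change went below 1 in at least 1 of these for *Mylpf* (0.98), *Tnnt3* (0.97), *Myl1* (0.95) and *Myoz2* (0.87), and in a test against a 2-fold change (glmTreat) only 1 of all tested genes was called as higher.

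The earlier end of the lineage went the other way. *Pax3*, the transcription factor gene of migrating progenitors, was at 6.24, 4.99 and 5.46 CPM in DMSO and at 2.33, 2.30 and 2.17 CPM in C59. The C59 libraries were close together and far below the controls (-1.29 ± 0.17, adjusted p 0.00124). *Met*, the receptor gene for the guidance signal, was at 45.0, 43.8 and 45.8 CPM against 22.9, 27.7 and 28.8 CPM (-0.76 ± 0.09, adjusted p 0.000374). *Lbx1* was at 19.4, 22.0 and 20.9 CPM against 13.2, 15.9 and 14.1 CPM (-0.53 ± 0.10, adjusted p 0.00840). *Myod1* was lower as well (-0.38 ± 0.08, adjusted p 0.0179), although its call was lost without DMSO replicate 3 or C59 replicate 2. *Pax7* (-0.14), *Myf5* (-0.08) and *Myog* (-0.05) overlapped between the groups and did not pass.

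**Figure D2:**
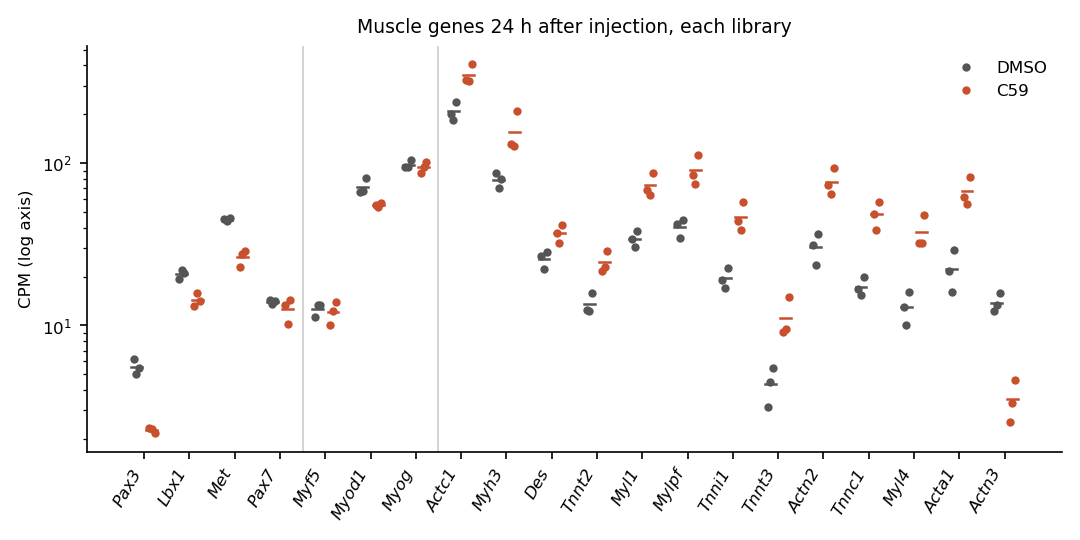
Level of 20 muscle genes in each of the 6 libraries at 24 h in CPM on a log axis (points), with the mean of each group (bars), ordered from progenitor genes on the left over myogenic regulators to sarcomere genes. In *Pax3*, *Lbx1* and *Met* all C59 libraries lie below DMSO, in *Myog* the groups overlap, and in *Acta1* all C59 libraries lie above DMSO.

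The reduction of progenitor genes had been present at 12 h and 18 h. *Pax3* had log2 fold changes of -2.04 at 12 h, -1.33 at 18 h (-1.48 without C59 18 h replicate 3) and -1.29 at 24 h. *Lbx1* went from -1.15 to -1.61 (-1.56 without that library) and then to -0.53, and this move from 18 h to 24 h passed the interaction test (1.07 ± 0.15, adjusted p 0.00137). *Myog* had been higher at 12 h (1.56) and its effect was smaller by 1.62 ± 0.26 at 24 h (adjusted p 0.000170). Over the muscle list 16 genes were higher and 4 lower at 12 h, when 22% of all tested genes were higher and 25.5% lower, and the median was 0.95 against 0.50 at 24 h. *Myl1* (1.56) and *Mylpf* (1.01) were called at 12 h already. *Tnni1* had log2 fold changes of 0.24 at 12 h (adjusted p 0.622) and 0.81 at 18 h (adjusted p 0.0641) before 1.25 at 24 h. For *Tnni1* the change of the effect from 12 h to 24 h was 1.00 ± 0.39 and missed the threshold (adjusted p 0.0566). DMSO 12 h replicate 2 stood apart in several sarcomere genes. At 12 h *Acta1* was at 0.252, 5.31 and 0.518 CPM in DMSO and at 1.98, 3.03 and 2.69 CPM in C59. *Mylpf* was at 3.74, 12.1 and 4.14 CPM against 11.9, 14.3 and 13.6 CPM. The 12 h effects in such genes and their standard errors depend on that library, and no 12 h fit without it is given here. In control development, from DMSO-treated embryos at 1 h to those at 18 h, *Acta1* rose by 2.30 and *Tnnc1* by 2.24 on the log2 scale, and *Pax3* fell by 1.83, so the C59 libraries at 24 h differed from DMSO in the direction of the change over time in these genes.

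Other genes of the sarcomere were called as lower, namely the myosin heavy chain gene *Myh15* (-1.06) and *Actn3*. *Actn3*, the α-actinin gene of fast fibres, was at 12.3, 13.4 and 15.8 CPM in DMSO and at 2.54, 3.33 and 4.63 CPM in C59, without overlap (-1.99 ± 0.18, adjusted p 8.73e-05). At 12 h the order was reversed, with 1.26 to 6.26 CPM in DMSO and 10.1 to 15.7 CPM in C59 (1.97). The change of the effect was -3.97 ± 0.51 (adjusted p 2.04e-05). Its closest relative *Actn2* was higher in C59 at 24 h, at 73.4, 64.5 and 92.9 CPM against 31.2, 23.5 and 36.8 CPM. No 100-base stretch of the *Actn3* transcripts is shared with another gene.

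The promoters of the muscle genes were searched for the E-box CAGCTG, the preferred binding sequence of the myogenic bHLH factors such as MYOD1 and MYOG. The motif reads the same on both strands. RefSeq promoters (GRCm38.p6, 250 bases before to 50 after the start of the gene) were at hand for 12 of the 14 muscle genes that were higher, and 7 of them (58.3%) held it, against 16.1% of all 27025 promoters, 15.4% of the 10750 promoters of tested genes and 33.3% (14 of 42) of those of all called higher genes, which include muscle genes. Among the 8 called genes it was found in *Acta1*, *Mylpf*, *Myl1* and *Tnni1*, but not in *Tnnc1*, *Myl4* and *Myh8*, and *Tnnt3* had no promoter in the table. A match is a description of the letters and not evidence of binding. The 250 bases before the start are shown for the 4 called genes that hold it, as examples of called muscle genes with a match, with the E-box in capitals. It begins 221 bases before the start in *Acta1* (chr8:123894776-123895025, minus strand), 51 in *Mylpf* (chr7:127211358-127211607, plus strand), 224 in *Myl1* (chr1:66945057-66945306, minus strand) and 68 in *Tnni1* (chr1:135799171-135799420, plus strand).
Acta1: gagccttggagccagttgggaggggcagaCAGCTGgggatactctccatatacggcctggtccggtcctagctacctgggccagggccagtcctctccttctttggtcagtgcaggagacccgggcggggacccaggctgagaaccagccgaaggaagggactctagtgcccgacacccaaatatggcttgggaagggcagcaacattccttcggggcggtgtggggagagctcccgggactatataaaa
Mylpf: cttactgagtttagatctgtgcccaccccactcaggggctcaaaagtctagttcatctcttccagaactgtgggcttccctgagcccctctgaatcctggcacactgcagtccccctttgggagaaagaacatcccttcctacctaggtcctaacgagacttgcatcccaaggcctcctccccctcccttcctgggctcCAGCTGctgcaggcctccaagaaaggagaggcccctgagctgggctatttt
Myl1: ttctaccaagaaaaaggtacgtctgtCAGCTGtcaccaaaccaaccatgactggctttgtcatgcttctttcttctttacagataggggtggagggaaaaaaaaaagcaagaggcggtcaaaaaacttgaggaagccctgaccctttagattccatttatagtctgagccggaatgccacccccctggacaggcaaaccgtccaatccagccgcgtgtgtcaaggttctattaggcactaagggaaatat
Tnni1: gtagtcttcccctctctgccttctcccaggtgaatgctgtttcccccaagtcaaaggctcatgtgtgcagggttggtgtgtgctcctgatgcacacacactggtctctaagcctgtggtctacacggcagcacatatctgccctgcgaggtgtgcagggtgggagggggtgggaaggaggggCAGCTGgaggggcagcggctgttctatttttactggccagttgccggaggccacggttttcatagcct

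Cartilage genes were the next group. Of 14 tested genes of the cartilage matrix, 8 were higher and none was lower, with a median log2 fold change of 0.58. *Matn1*, which encodes a matrix protein of cartilage, was at 13.3, 11.1 and 14.9 CPM in DMSO and at 26.2, 27.1 and 28.2 CPM in C59. The groups did not overlap and the gene was called (1.05 ± 0.11, adjusted p 0.000157). The related *Matn4* was at 118, 99.7 and 114 CPM against 180, 173 and 176 CPM (0.67 ± 0.07, adjusted p 0.000157). *Col11a2* (0.76), *Cnmd* (0.71), *Col9a2* (0.61), *Col9a3* (0.58), *Col9a1* (0.34) and *Col2a1* (0.33) were the others, which are the fibrillar and associated collagens of cartilage and chondromodulin. Between 6 and 9 members passed without a single library. The transcription factor genes of chondrocytes did not share this: *Sox9* was at 281, 268 and 280 CPM against 227, 285 and 293 CPM (-0.04 ± 0.08, adjusted p 0.815), and *Sox5* (-0.02) and *Sox6* (0.09) also overlapped. *Sox9* had been higher at 12 h (1.18).

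The matrix genes had risen more at 12 h, where the median of the list was 1.19, and at 18 h it was 0.48 (0.52 without C59 18 h replicate 3). In the chondrogenesis panel that the study picked from these libraries 6 of 13 were higher at 24 h, which for this reason is not independent evidence. In control development *Matn1* rose by 4.84, *Matn4* by 6.62 and *Col9a2* by 3.44 on the log2 scale.

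Joint genes showed the same sign. Of 11 genes of the joint interzone 4 were higher. *Gdf5*, the BMP-family signal that marks forming joints, was at 16.6, 17.5 and 18.6 CPM in DMSO and at 35.7, 33.2 and 35.0 CPM in C59. The 2 groups were tight and well apart (0.98 ± 0.08, adjusted p 4.65e-05), and *Gdf5* had log2 fold changes of the same sign at 6, 12 and 18 h (0.69, 1.26 and 0.80). *Wnt4*, *Jun* (0.40) and the antagonist gene *Sfrp2* (0.26) were the other 3. Outside this list, *Nkx3-2*, which encodes a repressor needed in early chondrocytes, was at 8.97 to 9.42 CPM against 13.2 to 15.5 CPM (0.66 ± 0.11, adjusted p 0.00366). *Nkx3-2* was listed as a marker of trunk and somite tissue, where it was the only 1 of 13 tested genes that changed. The summed level of that list overlapped, at 459 to 477 CPM in DMSO and 475 to 528 CPM in C59. Of 16 BMP ligand and antagonist genes 5 were higher and none lower, among them *Nog* (0.50), *Bmper* (0.38) and *Bmp7* (0.30). Without a single library the number of BMP genes ranged from 2 to 5.

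Of 14 genes of tendon and connective tissue *Egr1* (0.56) and *Mkx* (0.33) were higher, 2 were lower and 10 did not pass. The lower ones encode the chains of type I collagen. *Col1a1* was at 651, 591 and 597 CPM in DMSO and at 392, 314 and 457 CPM in C59, without overlap (-0.66 ± 0.11, adjusted p 0.00343). Its partner chain *Col1a2* was lower as well (-0.37 ± 0.07, adjusted p 0.00932), except without DMSO replicate 1. *Col1a1* had been higher at 12 h (0.51), and the effect changed by -1.18 ± 0.15 from 12 h to 24 h (adjusted p 1.89e-05).

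Genes of the distal limb bud, from which the digits form, were lower. *Hoxa13*, a marker of the hand plate, was at 80.1, 77.5 and 72.8 CPM in DMSO and at 42.4, 51.1 and 48.2 CPM in C59. The highest C59 library was far below the lowest DMSO library (-0.70 ± 0.08, adjusted p 0.000321). *Hoxd12* was at 156, 158 and 152 CPM against 107, 103 and 98.5 CPM (-0.60 ± 0.06, adjusted p 0.000103), and *Hoxd13* at 348, 334 and 335 CPM against 208, 261 and 242 CPM (-0.52 ± 0.08, adjusted p 0.00214). Only these 3 of the 20 tested *Hoxa* and *Hoxd* genes were lower. *Hoxd9*, a gene of more proximal domains, was higher by 0.27 in the fit reported here, and its call was lost without 5 of the 6 single libraries. *Hoxa13* was not lower earlier, with 0.32 at 6 h and -0.11 at 12 h, and at 18 h its log2 fold change was -0.50 (adjusted p 0.0520), or -0.37 (adjusted p 0.00797) without C59 18 h replicate 3. In control development *Hoxa13* rose by 1.53, which is opposite in sign to its difference in C59.

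Patterning genes of the anterior and posterior mesenchyme changed in 1 direction only. Of 16 tested 8 were lower and none was higher, with a median log2 fold change of -0.29. *Sall1*, a zinc finger gene, was at 86.6, 86.6 and 85.5 CPM in DMSO and at 58.0, 62.1 and 67.7 CPM in C59 (-0.46 ± 0.07, adjusted p 0.00222). *Lhx9*, which acts in distal outgrowth, was at 185, 188 and 184 CPM against 123, 149 and 133 CPM (-0.46 ± 0.07, adjusted p 0.00222). *Sall4* (-0.71), *Pax9* (-0.45), *Sall3* (-0.35), *Lhx2* (-0.30) and *Alx4* (-0.30) were lower as well. *Alx4* lost its call without 5 of the 6 single libraries. *Sall1* and *Lhx9* passed without each single library, whereas the count for the list fell to 2 without DMSO replicate 2. The ridge factor gene *Sp9* was called, at 5.14, 6.51 and 7.92 CPM against 2.80, 2.26 and 2.86 CPM (-1.32 ± 0.20, adjusted p 0.00225), after -1.16 at 18 h.

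**Figure D3:**
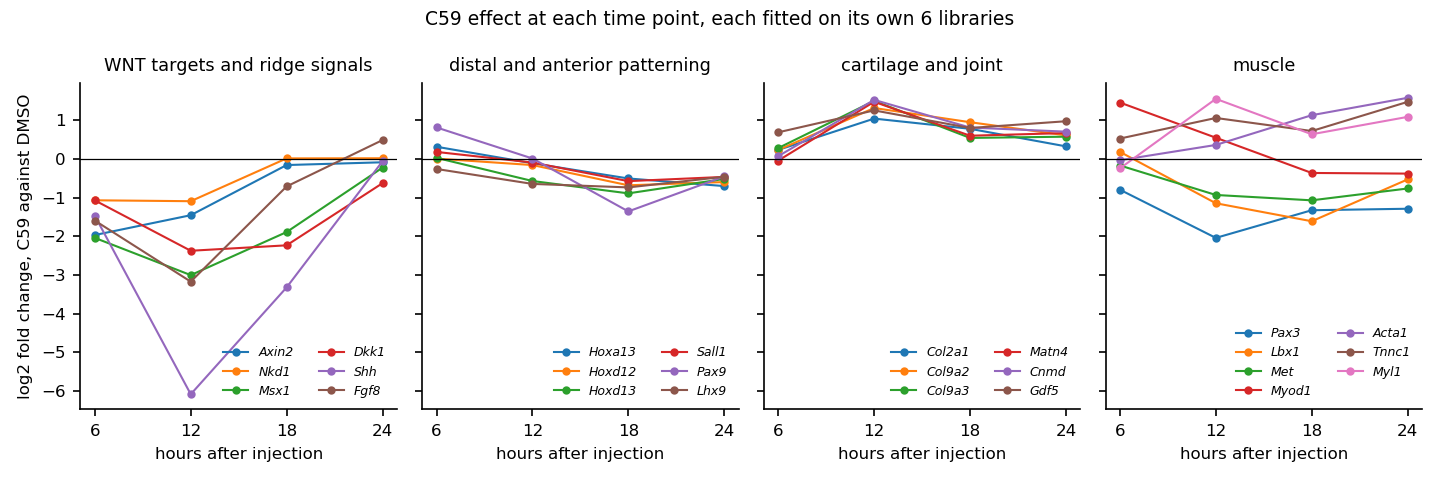
Log2 fold change, C59 against DMSO, at 6, 12, 18 and 24 h for genes of 4 groups, each time fitted on its own 6 libraries (lines join the time points). Targets and ridge signals are low at 12 h and lie between -0.63 (*Dkk1*) and 0.49 (*Fgf8*) at 24 h. *Hoxa13* and *Hoxd12* turn negative late, and cartilage genes peak at 12 h. In muscle *Pax3* stays below 0, and *Acta1* is at 1.58 at 24 h. The 12 h point of *Acta1* depends on DMSO 12 h replicate 2, which held more of its RNA than the other DMSO libraries of that time.

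For signals of the posterior mesenchyme and the ridge the C59 effect had moved far since 12 h. *Shh*, the posterior signal, was at 0.787, 1.44 and 0.526 CPM in DMSO and 0.776, 1.47 and 0.345 CPM in C59, with overlap (-0.06 ± 0.48, adjusted p 0.958). The level is low and the standard error wide, so that at this depth only a large difference could have been detected. The effect on *Shh* moved by 6.03 ± 0.70 between 12 h and 24 h (adjusted p 7.60e-06), and between 18 h and 24 h by 3.26 ± 0.62 (adjusted p 0.00743). *Fgf8*, the main FGF of the ridge, was at 6.77, 8.02 and 7.36 CPM against 11.1, 12.9 and 6.999 CPM. C59 replicate 3 lay within the DMSO range and the other 2 C59 libraries above it (0.49 ± 0.19, adjusted p 0.141). Without C59 replicate 3 *Fgf8* passed as higher (0.70). Its log2 fold change had been -3.17 at 12 h, a move of 3.66 ± 0.31 (adjusted p 3.86e-07). *Msx1*, a target of BMP and WNT signaling, was at 110, 105 and 110 CPM against 92.4, 95.8 and 89.3 CPM. It was thus still slightly lower (-0.22 ± 0.06, adjusted p 0.0382) after -3.01 at 12 h and -1.89 at 18 h, but 5 of the 6 fits without a single library did not pass.

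Of 12 genes of the hedgehog pathway 3 were lower, 1 was higher and 8 did not pass. *Gli1* was at 49.6, 46.7 and 48.9 CPM in DMSO and at 40.2, 38.6 and 37.5 CPM in C59 (-0.32 ± 0.07, adjusted p 0.0178). *Hhip* (-0.67), which encodes an antagonist induced by the pathway, was lower too, and the receptor gene *Ptch1* had -0.21 ± 0.07 (adjusted p 0.0786). The coreceptor gene *Boc* was higher (0.20). Neither *Gli1* nor *Hhip* passed without DMSO replicate 1 or DMSO replicate 3. Of 10 FGF ligand and receptor genes the mesenchymal ligand gene *Fgf10* (-0.43) and the receptor gene *Fgfr4* (-0.57) were lower, and the receptor genes *Fgfr3* (0.49) and *Fgfr2* (0.35) were higher.

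Retinoic acid, a signal of the proximal limb, is cleared from the distal part by CYP26B1. *Cyp26b1* was at 252, 253 and 225 CPM in DMSO and at 175, 161 and 153 CPM in C59, without overlap (-0.58 ± 0.07, adjusted p 0.000408). *Stra6*, which encodes a receptor for the vitamin A carrier, was lower as well (-0.47 ± 0.07, adjusted p 0.00141). The receptor gene *Rarb*, itself induced by retinoic acid, was at 4.83, 5.27 and 4.73 CPM against 8.14, 8.29 and 7.74 CPM (0.70 ± 0.13, adjusted p 0.00866), and *Aldh1a2*, the synthesis enzyme, was higher by 0.35. The proximal gene *Meis1* overlapped (-0.04). Of the 19 tested genes of this group 3 were higher and 2 lower. The ephrin receptor genes *Epha3* (-0.51 ± 0.07, adjusted p 0.00108) and *Epha4* (-0.50 ± 0.06, adjusted p 0.000440), which take part in sorting cells and guiding axons in the limb, were lower.

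Genes of growth, lower during inhibition, were mostly level with the controls or above them. Of 26 S-phase genes 3 were higher and none lower, with a median log2 fold change of 0.05 against -0.67 at 12 h. *Mcm7*, a subunit gene of the replicative helicase, was at 250.02, 179.7 and 250.7 CPM in DMSO and at 368, 348 and 307 CPM in C59 (0.59 ± 0.11, adjusted p 0.00887), after -0.71 at 12 h, and the effect changed by 1.30 ± 0.14 (adjusted p 3.54e-06). *Gins2* (0.32) and *Tyms* (0.26) were the other 2, and only *Mcm7* passed without each single library. Of 26 genes of G2 and mitosis *Mki67*, *Cenpf* and *Cenpe* were lower, by 0.35 to 0.37, and the median was -0.01. These 3 genes have long transcripts, and none of them passed without DMSO replicate 1 or DMSO replicate 3.

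Of 22 genes of ribosome biogenesis 5 were higher and none lower, against 22 of 22 lower at 12 h, where 25.5% of all tested genes were lower. *Noc2l* was at 85.8, 86.4 and 85.7 CPM in DMSO and 129, 130 and 111 CPM in C59 (0.52 ± 0.07, adjusted p 0.000981). *Srm*, *Bop1*, *Rrp9* and *Odc1* were higher by 0.26 to 0.36, and the count for the list fell to 1 without DMSO replicate 1 or DMSO replicate 2. Of 21 genes of serine and one-carbon metabolism and the ATF4 response 4 were higher, 1 was lower and 16 did not pass. *Shmt1*, an enzyme gene of one-carbon metabolism, was at 70.1, 66.7 and 64.4 CPM against 85.4, 85.3 and 85.1 CPM (0.35 ± 0.06, adjusted p 0.00638). *Psat1* (0.30), *Mthfd2* (0.26) and the stress gene *Trib3* (0.86) were the others, and the 3 enzymes had been lower at 12 h. The cystine transporter gene *Slc7a11* was the lower one, at 25.3, 27.7 and 25.9 CPM against 13.4, 13.7 and 17.005 CPM (-0.84 ± 0.10, adjusted p 0.000517), after -1.63 at 12 h and -1.12 at 18 h.

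Cholesterol synthesis had not fully returned. Of 21 tested genes 6 were lower and none higher, with a median of -0.15 against -0.94 at 12 h. *Fdft1*, which encodes squalene synthase, was at 99.7, 111 and 104 CPM in DMSO and 87.4, 78.0 and 72.9 CPM in C59 (-0.40 ± 0.07, adjusted p 0.00829). *Fdps* (-0.31), *Cyp51* (-0.22) and *Srebf2* (-0.22) were lower by less. The count ranged from 1 to 9 when a single library was left out, with the lowest value without DMSO replicate 3.

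*Pmaip1*, the gene of the pro-apoptotic protein NOXA, was the only one of 19 tested cell death genes that changed. Its level was 49.4, 52.0 and 41.8 CPM in DMSO and 16.1, 23.6 and 14.8 CPM in C59, with all C59 libraries below all DMSO libraries (-1.38 ± 0.14, adjusted p 0.000207). The difference was absent by the test at 12 h (-0.03, adjusted p 0.822) and present at 18 h (-1.36, or -1.19 without C59 18 h replicate 3). Of 10 tested heterochronic genes, which are active early in development and decline later, 4 were lower. *Trim71* was at 22.5, 21.5 and 22.4 CPM against 15.2, 16.6 and 14.0 CPM (-0.53 ± 0.09, adjusted p 0.00557), and *Igf2bp1* was lower by 0.47, *Arid3a* by 0.33 and *Arid3b* by 0.32. *Trim71*, *Arid3a* and *Arid3b* fell in control development as well (-1.26, -0.84 and -0.82).

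Markers of the other tissues in the limb bud were compared in the same libraries. The summed level of 22 genes of the surface ectoderm was 628 to 654 CPM in DMSO and 729 to 809 CPM in C59, and 5 of the 21 tested were higher. *Krt15*, a keratin gene of the basal layer, was at 34.4, 31.9 and 38.9 CPM against 74.1, 54.5 and 64.8 CPM (0.88 ± 0.11, adjusted p 0.000630), and *Krt5* was higher by 0.40. The ectodermal ligand genes *Wnt3*, *Wnt6* and *Wnt7b* moved with this sum, which itself includes *Wnt6*. The part of the ectoderm in the difference of these ligand genes was not tested. Macrophage genes summed to 91.4 to 104 CPM and 107 to 121 CPM, with *C1qa* higher by 0.65. The summed level of the 32 muscle genes was 915 to 1086 CPM in DMSO and 1315 to 1773 CPM in C59.

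Sums for endothelial cells (599 to 628 CPM and 544 to 603 CPM) and red blood cells (4765 to 5938 CPM and 4104 to 6260 CPM) overlapped. In these lists *Kdr* (-0.26) and *Flt4* (-0.36), receptor genes for vascular growth factors, and the embryonic globin gene *Hbb-bh1* (-0.49) were lower. *Kdr* and *Flt4* each lost the call without 5 of the 6 single libraries. Schwann cell precursors overlapped at 267 to 276 CPM and 276 to 345 CPM. Of this list the pigment cell gene *Dct* was called as lower at 1.36 to 1.54 CPM against 0.542 to 0.595 CPM. This call was lost without 4 of the 6 single libraries. Neuron genes overlapped at 138 to 145 CPM and 113 to 139 CPM, although *Tubb3*, a tubulin gene of neurons, was lower (-0.65 ± 0.12, adjusted p 0.00661).

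The next question was which differences at 24 h were left over and which had turned. Of the 112 genes called at 24 h, 29 (25.9%) had been called at 12 h, which is 4.39% of those called at 12 h. Of these 29, 17 had the same sign and 12 the opposite sign. At 18 h 21 of the 112 (18.8%, and 12.1% of the 18 h calls) had been called, 17 with the same sign and 4 with the opposite one. Without C59 18 h replicate 3 the numbers were 23, 19 and 4. A total of 63 of the 112 genes were not called at 6, 12 or 18 h, and this number includes genes too low to be tested at those times. The Pearson correlation of the log2 fold changes over all genes tested at both times was 0.034 between 12 h and 24 h. It was 0.181 between 18 h and 24 h (0.133 without the library named above) and -0.058 between 6 h and 24 h. By rank (Spearman) the values were -0.062 for 12 h, 0.120 for 18 h (0.0074 without that library) and -0.172 for 6 h. These correlations are across genes, which are not independent replicates, and the fits compared share no library.

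At any fold, 487 of the 881 changed genes (55.3%, and 7.69% of those changed at 12 h) had also changed at 12 h, when 47.5% of all tested genes did, with 236 of them opposite in sign. With 18 h, when 7.08% had changed, they shared 157 (17.8% and 16.5%), of which 131 had the same sign and 26 the opposite one. Without C59 18 h replicate 3, where 16.2% had changed, 249 were shared, with the same sign in 189. With 6 h, when 19.6% had changed, 297 were shared (33.7% and 11.6%), 102 with the same sign and 195 with the opposite sign.

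Lasting differences were mostly reductions among the larger ones. At both 12 h and 18 h 6 genes had been called with the sign that they had at 24 h, namely *Pax3*, *Pappa2*, *Atp6v1g3*, *Hkdc1*, *Vwde* and *Myh15*, and all 6 were lower. *Pappa2*, which encodes a protease that frees insulin-like growth factors, was at 13.8, 12.7 and 10.2 CPM in DMSO and at 4.44, 2.62 and 3.70 CPM in C59 (-1.77 ± 0.18, adjusted p 0.000205), after -2.63 and -1.71 at 12 h and 18 h. *Atp6v1g3*, a subunit gene of the proton pump, was at 10.3, 12.5 and 6.55 CPM against 3.06, 3.77 and 2.96 CPM (-1.58 ± 0.22, adjusted p 0.00155), after -3.00 and -2.16. The effects on *Vwde* (2.11 ± 0.44, adjusted p 0.00130) and *Myh15* (4.40 ± 0.77, adjusted p 0.000317) had become smaller since 12 h by the interaction test. *Vwde* was near 1 CPM, and its call was lost without 4 of the 6 single libraries. *Zic1*, a zinc finger gene, was at 2.83, 3.47 and 3.88 CPM against 0.862, 0.397 and 0.986 CPM (-2.21 ± 0.30, adjusted p 0.00125), after -2.81 at 18 h.

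Among genes with the opposite sign, *Cbln4*, the gene of a secreted synaptic organizer, was lower at 24 h and at 18 h but higher at 12 h. Its level at 24 h was 15.3, 19.1 and 15.04 CPM in DMSO and 6.98, 6.03 and 5.91 CPM in C59, with no overlap (-1.39 ± 0.13, adjusted p 8.93e-05). The earlier values were 1.70 at 12 h and -1.03 at 18 h, and the move from 12 h to 24 h was -3.10 ± 0.28 (adjusted p 8.16e-07). *Ctse*, a protease gene, went the other way and was at 3.93, 3.95 and 5.17 CPM against 9.22, 8.96 and 10.6 CPM (1.13 ± 0.15, adjusted p 0.00111). It had been lower by 5.44 on the log2 scale at 12 h, and the effect moved by 6.57 ± 0.40 (adjusted p 1.51e-08). *Gmnc*, a regulator gene of cells with many cilia, turned from 1.158 at 12 h to -2.48 ± 0.37 (adjusted p 0.00222) at 24 h, at 1.25 to 1.36 CPM against 0.148 to 0.278 CPM. *Wdr72* (-1.81), which was below 2 CPM in all 6 libraries, lost its call without DMSO replicate 1, DMSO replicate 3 or C59 replicate 3.

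**Figure D4:**
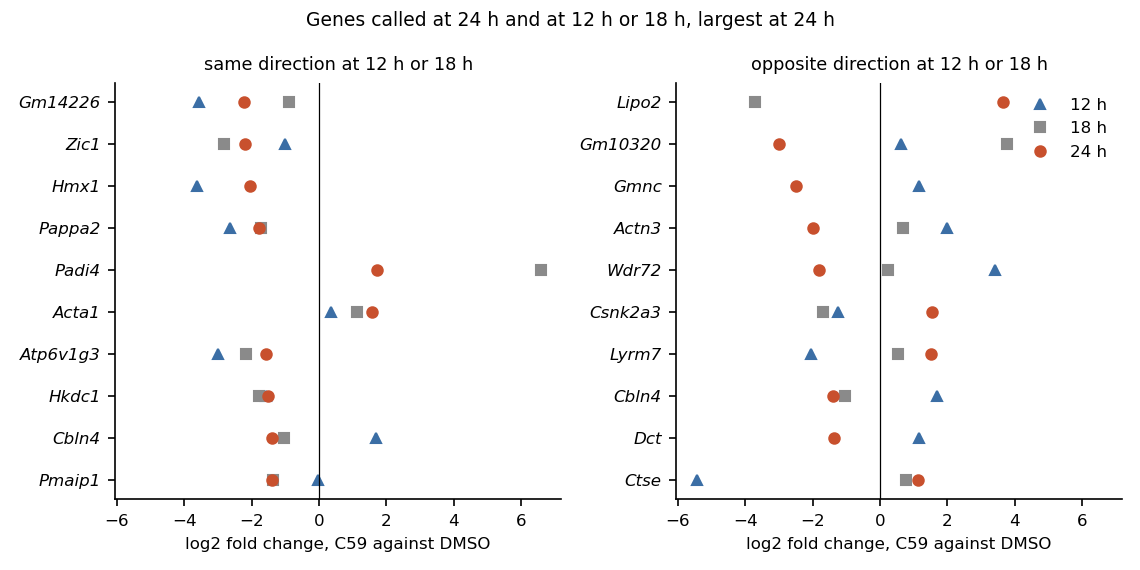
Log2 fold change, C59 against DMSO, at 12, 18 and 24 h for the 10 largest genes called at 24 h and with the same sign at 12 h or 18 h (left) or the opposite sign (right). Symbols mark the time, a missing symbol means that the gene was not tested then, and *Cbln4* is in both panels because it had the opposite sign at 12 h (1.70) and the same sign at 18 h (-1.03).

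Set against development, called genes moved with time in both groups. Of 45 called higher genes that could be tested from DMSO at 1 h to DMSO at 18 h, 25 rose (55.6%) and 3 fell. Of 51 called lower genes 20 rose (39.2%) and 7 fell. Of all genes tested in that comparison 20.1% rose and 19.2% fell.

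Among genes of at least 1 CPM the largest reductions were seen in a cluster of zinc finger genes. *Zfp979*, *Zfp984* and *Zfp985*, 3 zinc finger genes that lie next to each other on chromosome 4 (147553277 to 147809788, mm10), were almost lost. *Zfp979* was at 10.9, 11.1 and 8.89 CPM in DMSO and 0.0862, 0.119 and 0 CPM in C59 (-7.04 ± 0.33, adjusted p 1.56e-07). *Zfp984* was at 15.6, 17.6 and 17.6 CPM against 0.646, 0.278 and 0.591 CPM (-5.08), and *Zfp985* at 4.25, 5.07 and 5.13 CPM against 0.0431, 0.317 and 0.0493 CPM (-5.01). Levels this low were confined to the 3 C59 libraries at 24 h, since the other 27 libraries held 2.73 to 13.0, 4.76 to 21.6 and 1.05 to 5.58 CPM. A smaller reduction in C59 had been present at 6 h. It was -0.86 for *Zfp979* (adjusted p 0.0346), -1.11 for *Zfp984* (adjusted p 0.00261) and -0.85 for *Zfp985* (adjusted p 0.0109). At 12 h and 18 h none of the 3 passed. The next gene on one side, *Zfp933*, was at similar levels (0.04 ± 0.11, adjusted p 0.856) and *Zfp982* on the other side was higher (0.78 ± 0.20, adjusted p 0.0399). Parts of *Zfp979* (21.5% of its 100-base stretches) and *Zfp984* (30.9%) are shared with other genes, and their counts are uncertain to that extent, but only 1.73% of *Zfp985* is shared. *Akr1e1*, an aldo-keto reductase gene with no shared stretch, was the largest increase among genes of at least 1 CPM. It was at 5.19, 3.99 and 4.33 CPM in DMSO and 22.6, 22.9 and 26.9 CPM in C59 (2.43 ± 0.12, adjusted p 2.76e-07), and the other 27 libraries did not exceed 18.1 CPM. The DMSO libraries at 24 h were at the low end of the series. The 24 libraries of the other times held 4.62 to 18.1 CPM, with a median of 10.9 CPM. *Akr1e1* had also been higher in C59 at 6 h (1.04, adjusted p 0.00479).

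**Figure D5:**
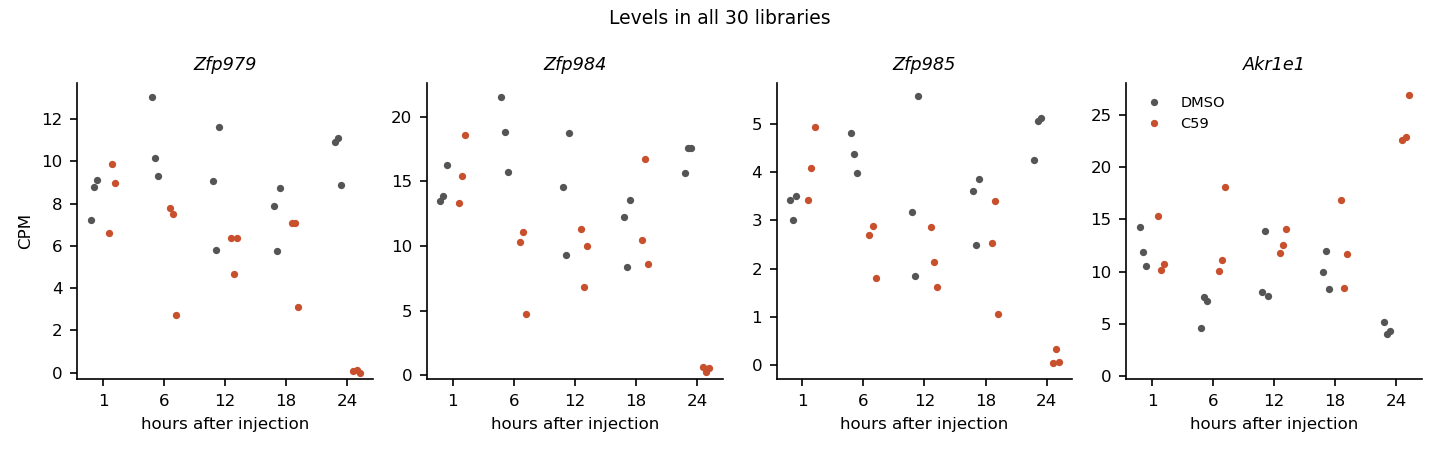
Level in CPM of 3 neighbouring zinc finger genes and of *Akr1e1* in all 30 libraries against the hours after injection (points, grey for DMSO and orange for C59). The 3 C59 libraries at 24 h lie between 0 and 0.646 CPM for the zinc finger genes and from 22.6 to 26.9 CPM for *Akr1e1*, outside the range of the other 27.

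Some other genes among the largest varied between groups at other times as well. *Padi4* was at 0.930 to 4.59 CPM in DMSO and 6.41 to 8.36 CPM in C59 at 24 h, and ran from 0 to 14.4 CPM over the other 24 libraries. *Srp54a* (1.90), 66.6% of which is shared with its copies, *Csnk2a3* (1.54), of which 79.7% is shared, *Gm10320* (-3.01), *Gm14226* (-2.22) and *Lyrm7* (1.503) likewise overlapped at 24 h with the range of the other 24 libraries, though not in every library. C59 replicates 2 and 3 lay above that range in *Csnk2a3* (24.4 and 26.6 against at most 18.2 CPM) and *Lyrm7* (9.48 and 10.4 against at most 9.44 CPM). C59 replicate 3 was at 0 CPM in *Gm14226*, against at least 2.53 CPM. Of the remaining genes among the largest, *Onecut2*, a transcription factor gene, was at 2.62, 1.64 and 2.26 CPM against 0.345, 0.476 and 0.296 CPM (-2.50 ± 0.33, adjusted p 0.00112). *Trim9*, a ubiquitin ligase gene of neurons, was at 6.35, 6.79 and 4.16 CPM against 1.51, 1.15 and 1.08 CPM (-2.20), and *Acsl6*, an enzyme gene that activates fatty acids, was lower by 2.01. *Col6a5*, a collagen gene, was at 2.52, 1.44 and 2.18 CPM against 7.24, 7.22 and 10.6 CPM (2.04 ± 0.23, adjusted p 0.000285). The cytokine genes *Il17b* (1.64) and *Ccl28* (1.63) were higher at low levels, and *Hmx1*, a homeobox gene, was lower (-2.04). The call for *Hmx1* was lost without DMSO replicate 2 and that for *Ccl28* without 4 of the 6 single libraries. *Sycp1*, a gene of the meiotic chromosome axis, had 11, 41 and 17 counts in DMSO and none in C59, at least 23.0-fold lower with a floor of 3 counts over the group, which covers counting error only.

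Changed genes differed in transcript length. The median exonic length was 3395 bases for higher and 7808 bases for lower genes, against 4517 over all tested genes. Across genes the log2 fold change correlated with log2 length at -0.18 and with GC content at 0.134. C59 replicate 1 had the steepest dependence on GC content, with 0.153 log2 units per 10 percentage points, against -0.044 to -0.016 in the other 5 libraries. Without this library the medians were 3946 and 7133 bases. With offsets for length and GC content, added after the data had been seen, 792 of the 881 changed genes passed again and 104 of the 112 called genes remained called, and the medians were 4867 and 5563.5 bases. The part of library quality in the differences was not tested beyond this.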

How the data were processed

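PolyA RNA of 3 DMSO and 3 C59 forelimb bud libraries at 24 h was compared, with 6, 12 and 18 h as reference. Adapters were removed by the authors with cutadapt 1.16, and STAR 2.7.0e was used for mapping to mm10. Raw, unscaled counts for 50833 autosomal genes were deposited as 1 table, and the strand of counting is not given in the sources used here. The deposited FPKM table came from Cufflinks 2.2.1. Genes were matched to GENCODE M21 (50628 matched, the rest holding 0.00676% of counts).

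Protein-coding genes were tested with edgeR 4.0.16 in R 4.3.3 (TMM, filterByExpr with a minimum count of 10, quasi-likelihood F test, two-sided, Benjamini-Hochberg) on the 6 libraries of each time, with interaction contrasts on 12 libraries. CPM values are counts scaled to TMM library sizes. Standard errors came from the F statistic. The members and the 45 gene lists were chosen with earlier results of these data known. Of 735 listed genes 696 were in the table. Named genes were *Axin2*, the 12 largest increases and decreases of at least 1 CPM without overlap, changed or defining members of a list, up to 10 lasting and 10 opposite genes, and genes at 0. Others are marked as picked after their values were seen. Lists were described by counts and medians. Some members of the lists are counted but not reported by name here. Alternatives used DESeq2 1.42.0, limma 3.58.1, other scalings and filters, a replicate block, and leaving out each library. Scripts were tested on simulated data.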

Additional observations from a re-analysis of the deposited data

Results flagged for a closer look

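The C59 effect differed between time points for 805 genes from 12 h to 24 h and for 175 genes from 18 h to 24 h, by the interaction contrast in edgeR's quasi-likelihood test (Benjamini-Hochberg adjusted p below 0.05 and a change beyond 1 on the log2 scale). Of the genes named, the effect moved upwards from 12 h to 24 h for *Ctse* (6.57), *Shh* (6.03), *Myh15* (4.40), *Fgf8* (3.66), *Msx1* (2.78), *Vwde* (2.11), *Dkk1* (1.74), *Axin2* (1.36) and *Mcm7* (1.30). It moved downwards for *Zfp979* (-6.43), *Zfp984* (-4.48), *Zfp985* (-4.32), *Actn3* (-3.97), *Cbln4* (-3.10), *Myog* (-1.62), *Pmaip1* (-1.36) and *Col1a1* (-1.18). From 18 h to 24 h it moved upwards for *Shh* (3.26), *Myh15* (2.44), *Vwde* (2.21), *Msx1* (1.66), *Dkk1* (1.60), *Fgf8* (1.19) and *Lbx1* (1.07) and downwards for *Zfp979* (-6.69), *Zfp984* (-5.17), *Zfp985* (-4.53) and *Actn3* (-2.67).

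The comparisons rest on the count table, which has no genes of chromosome X. Among 440 X-linked genes measured as FPKM, 16 had an adjusted p below 0.05 at 24 h (limma on log2(FPKM + 1)), 9 of them higher, beside 389 of 12033 autosomal genes in the same fit. The muscle gene *Smpx* was at 0.977, 1.08 and 0.904 FPKM in DMSO and 1.92, 1.79 and 3.39 FPKM in C59, and *Itgb1bp2*, another muscle gene, was at 0.948, 0.597 and 1.19 against 2.54, 2.14 and 2.69 FPKM. *Chrdl1*, which encodes a BMP antagonist, was at 12.6, 11.1 and 9.86 against 14.2, 16.9 and 17.2 FPKM. These genes were picked after their values had been seen, and all of them were higher. The X-linked genes that were lower are not named here.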

How the results depend on the processing

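The 112 called genes (57 higher, 55 lower) were recomputed under each alternative. None of the 234 changed genes followed one by one reversed its sign, whereas some that had not passed did, with *Shh* running from -0.69 to 0.46. limma on log2(FPKM + 1) called 24 (14 higher, 10 lower) and with a pseudocount of 0.1 it called 70 (24 lower), a scale that understates the change of low genes. At any fold it found 484 (180 lower) and 429 (159 lower). A test against a 2-fold change (glmTreat) called 5, with 1 higher and 4 lower, and with no minimum fold there were 881, with 394 higher and 487 lower. On that rule the overlap with 12 h was 251 genes of the same sign and 236 of the opposite one, and with 18 h 131 and 26. Offsets for length and GC content, chosen after seeing the data, gave 628 higher genes at any fold. With DMSO at 12 h in place of 18 h for development, 407 genes were called, of the called higher genes 8 rose, and of the called lower genes 11 rose and 3 fell.

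Without a single library, with 2 against 3 left, 79 to 104 genes were called, with 38 to 54 higher and 32 to 57 lower, the fewest lower without DMSO replicate 1. At any fold the count ran from 265 (without DMSO replicate 1) to 996 (without C59 replicate 1), with 140 to 441 higher and 125 to 576 lower. It was 343 and 333 without DMSO replicates 2 and 3, and 519 without C59 replicate 2. The interaction from 12 h to 24 h gave 714 to 911 genes (233 to 264 up, 481 to 647 down), and from 18 h to 24 h 115 to 219 (59 to 106 up, 54 to 132 down), the fewest without C59 24 h replicate 2. The cause of these differences was not tested.

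Whether replicate numbers pair the libraries is not given by the labels. Deviations of same-numbered libraries correlated at -0.025, 0.027 and 0.013 at 24 h. The values were 0.036, 0.072 and 0.131 at 12 h and -0.168, 0.065 and -0.088 at 18 h. With 3 libraries per group these correlations cannot decide the question. With the replicate block 103 genes were called (53 higher, 50 lower) and 762 at any fold, and the interactions gave 770 and 130. A sex covariate was not run, because no C59 library lacked Y-linked transcripts. Of the 234 changed genes followed, 150 lost their call in at least 1 of 17 alternatives, glmTreat not included.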

Other observations

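Y-linked genes summed to 0.0147 FPKM in DMSO 24 h replicate 2 and to 19.3 to 24.98 FPKM in the other 5 libraries at 24 h, while *Xist* was at 26.4 to 66.6 FPKM in all 6. Transcripts of both kinds were therefore present in 5 libraries. The methods of the study give one pair of forelimb buds for the RNA of each replicate, after several pairs had been dissected. If tissue of several embryos was joined, the spread between libraries is that between pools, which was not tested. DMSO and C59 libraries at 24 h are not balanced in this respect, and no C59 library lacked Y-linked transcripts.

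Several small groups showed a few changed members. Of 18 immediate early genes *Ccn2* (0.68), *Egr1* (0.56), *Ccn1* (0.40) and *Jun* (0.40) were higher and none was lower. *Ccn2* was at 9.6, 10.8 and 10.3 CPM in DMSO and at 15.7, 16.8 and 17.005 CPM in C59, without overlap (edgeR adjusted p 0.00197). Of the 14 heat shock, 17 clock and 16 glucocorticoid and drug response genes tested, none passed. Of 16 genes of insulin-like growth factors and imprinting *Igf2* was higher (0.27) and the receptor gene *Igf1r* lower (-0.30).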
